A study of Mus musculus with 6 samples.

Results

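The genes named Tex (testis expressed) and Spata (spermatogenesis associated) were examined in nuclear RNA from mouse embryonic stem cells (ES cells, the cultured pluripotent cells of the early embryo). They were taken as every entry of the authors' deposited table whose RefSeq identifier belongs to a gene symbol made of Tex or Spata followed by a digit, with the highest entry kept where a symbol had several, and with a base mean above 0. Of 61 matching entries with 59 symbols, 6 genes were at 0, which left 53 genes (26 Tex and 27 Spata) among 19198 entries above 0 and 20633 entries in all. The cells carried *Rybp* fl/fl and *Yaf2* -/- alleles in both groups, so that *Yaf2* (its first exons deleted with Cas9, in cells grown from picked colonies) was lacking throughout. The 3 untreated libraries (UNT) were compared by the authors with 3 libraries from cells given 800 nM 4-hydroxytamoxifen (OHT) for 96 h, which activates a Cre recombinase that recombines *Rybp*. A group given OHT without floxed *Rybp* was not analysed here.

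The value used here is the base mean, the read count of an entry divided by a size factor for library depth and averaged by the authors over all 6 libraries, UNT and OHT together. A base mean therefore describes these cells as a whole, and the difference between OHT and UNT is not described. RYBP and YAF2 are alternative subunits of variant PRC1, a Polycomb complex that ubiquitylates histone H2A and represses transcription. In ES cells a form of this complex that contains E2F6 and the MGA and MAX proteins represses many germline genes, and these factors bind E2F sites and E-boxes. The names Tex and Spata record where transcripts were first noticed. They do not define a protein family, and the genes encode meiotic proteins, sperm components, and proteins used in most cells. Nuclear RNA is rich in unspliced transcripts and so follows transcription closely.

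A set of promoters is shown first, because their CG content is set against the base means below. Each window runs from 250 bases before to 50 bases after the annotated start, is taken from RefSeq on GRCm38.p6 (the assembly also named mm10), and is printed 5′ to 3′ in the sense of the gene with every CG dinucleotide in capitals. *Tex10* and *Tex101* are windows with many CG, and *Tex45* and *Spata31d1c* are windows without any. These windows lie at chr4:48473414-48473713 (minus strand), chr7:24672001-24672300 (minus), chr8:3470612-3470911 (plus) and chr13:65032808-65033107 (plus).
Tex10: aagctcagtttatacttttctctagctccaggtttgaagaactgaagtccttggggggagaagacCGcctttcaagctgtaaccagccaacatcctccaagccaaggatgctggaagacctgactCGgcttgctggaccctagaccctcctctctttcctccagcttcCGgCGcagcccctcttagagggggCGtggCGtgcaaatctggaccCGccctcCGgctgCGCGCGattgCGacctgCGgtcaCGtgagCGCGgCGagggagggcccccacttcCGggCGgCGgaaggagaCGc
Tex101: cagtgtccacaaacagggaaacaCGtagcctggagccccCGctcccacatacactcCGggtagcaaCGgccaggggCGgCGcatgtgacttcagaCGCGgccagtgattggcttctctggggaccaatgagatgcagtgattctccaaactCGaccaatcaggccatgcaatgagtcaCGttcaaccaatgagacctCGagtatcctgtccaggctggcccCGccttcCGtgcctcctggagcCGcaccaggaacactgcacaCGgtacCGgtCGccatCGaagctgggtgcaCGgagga
Tex45: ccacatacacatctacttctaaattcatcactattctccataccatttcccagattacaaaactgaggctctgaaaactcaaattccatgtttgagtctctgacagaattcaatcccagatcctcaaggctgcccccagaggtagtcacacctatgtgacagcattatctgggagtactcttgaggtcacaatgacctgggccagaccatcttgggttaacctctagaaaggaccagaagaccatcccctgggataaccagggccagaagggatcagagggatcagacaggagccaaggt
Spata31d1c: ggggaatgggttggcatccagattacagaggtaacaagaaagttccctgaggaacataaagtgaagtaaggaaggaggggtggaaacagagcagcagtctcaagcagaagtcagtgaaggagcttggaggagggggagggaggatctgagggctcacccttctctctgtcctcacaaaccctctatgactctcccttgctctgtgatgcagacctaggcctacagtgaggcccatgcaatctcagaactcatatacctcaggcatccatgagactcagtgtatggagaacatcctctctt

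The *Tex10* window held 21 CG dinucleotides, and its ratio of observed to expected CG (the count set against that from the base composition) was 0.737. In *Tex101* there were 19 at a ratio of 0.700. Both ratios lay just above 0.692, the median over 14140 genes with a base mean above 0 and a window. The base means were 6246 for *Tex10* and 35.5 for *Tex101*. Without a single CG in the window, *Tex45* had a base mean of 17.4 and *Spata31d1c* one of 0.473. *Tex16*, the other gene with no CG in its window, had one of 50.6, above that of *Tex101*.

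The labelled cell type was checked against marker genes. All 9 ES cell markers in the table lay above the median base mean of all entries (306.7), between 1565 for *Utf1* and 10603 for *Esrrb*. Of 8 markers of spermatids, 5 were at 0, including the protamine gene *Prm1*, and the highest was *Spem1* at 1.71, with a summed base mean of 3.89 over the list. Germ cell markers were mixed, with 4 of 10 above the median (*Kit*, *Dmrt1*, *Ddx4* and *Stra8*) and *Nanos2* at 0. Somatic testis markers reached at most 209.9 (*Star*), and of 6 fibroblast markers only *Col1a1*, at 369.3, was above the median. *Rybp* had a base mean of 13983, which merges UNT and OHT and so does not check the deletion, and *Yaf2* one of 3.24. Library depth was recovered in part from the lowest base means, as described below, and the size factors ran from 0.664 to 1.48, a 2.23-fold range.

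The Tex and Spata genes spanned nearly the whole range of the table and were weighted towards its lower end. Their median base mean was 19.7 (quartiles 3.27 and 425.5), against 306.7 (quartiles 25.9 and 1260) over all entries above 0. Of the 53 genes, 14 (26.4%) lay above the median of all entries. A base mean of at least 1000 was reached by 10 genes (18.9%, against 29.4% of all entries). At the other end, 22 of the 53 genes, against 18.6% of all entries, had a base mean under 10. Of these, 8 were under 1, which is 15.1% of the 53 genes, against 6.26% of all entries. These are descriptions of pooled values, and no test was made over genes.

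**Figure D1:**
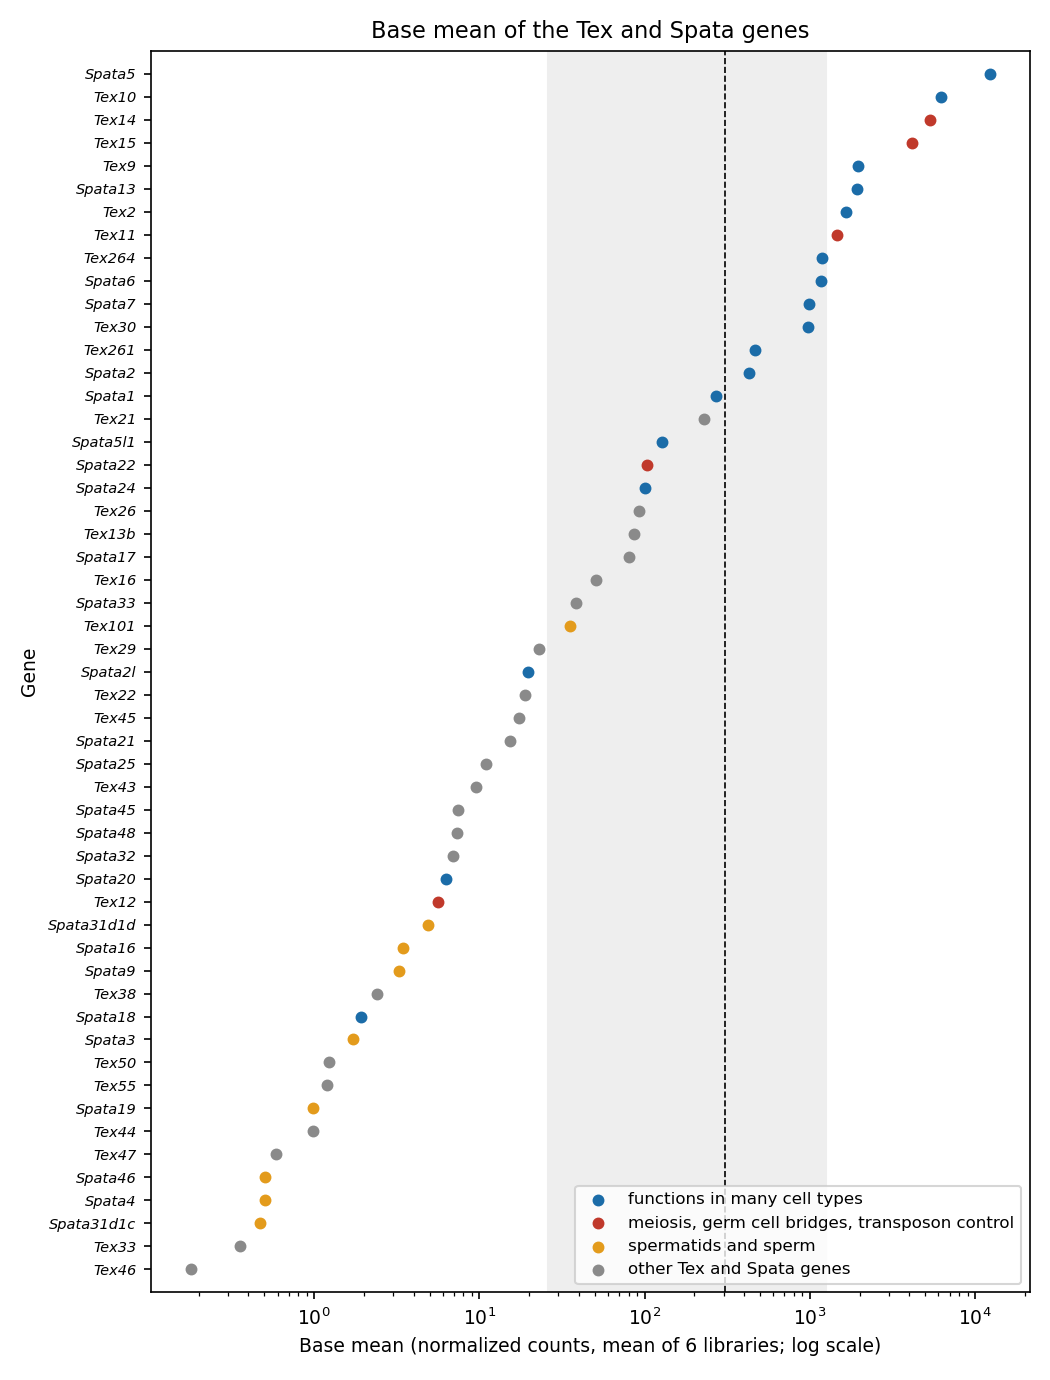
Base mean of each of the 53 Tex and Spata genes on a log scale, coloured by role list; the grey band runs from the lower to the upper quartile of all entries above 0 and the dashed line is their median (306.7). Points run from 0.179 (Tex46) to 12267 (Spata5), with 14 genes to the right of the dashed line.

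Read counts grow with the length of a gene, and levels of different genes are therefore compared per kb. Per kb of transcript span, the median of the Tex and Spata genes was 1.498, against 13.7 over all entries, and 15 of 53 (28.3%) lay above the median of all. With exonic length in place of the span, 15 of the 52 genes with a known exonic length lay above the median of all entries, which was 118.8 per kb. Both ways of counting length are given, because the authors' counting is not stated to be over exons or over whole genes. The Tex genes had a median of 2.48 per kb of span and the Spata genes one of 1.00. As genes they were short, with a median span of 15039 bp and a median exonic length of 1535 bp, against 20118 bp and 2652 bp over all genes.

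**Figure D2:**
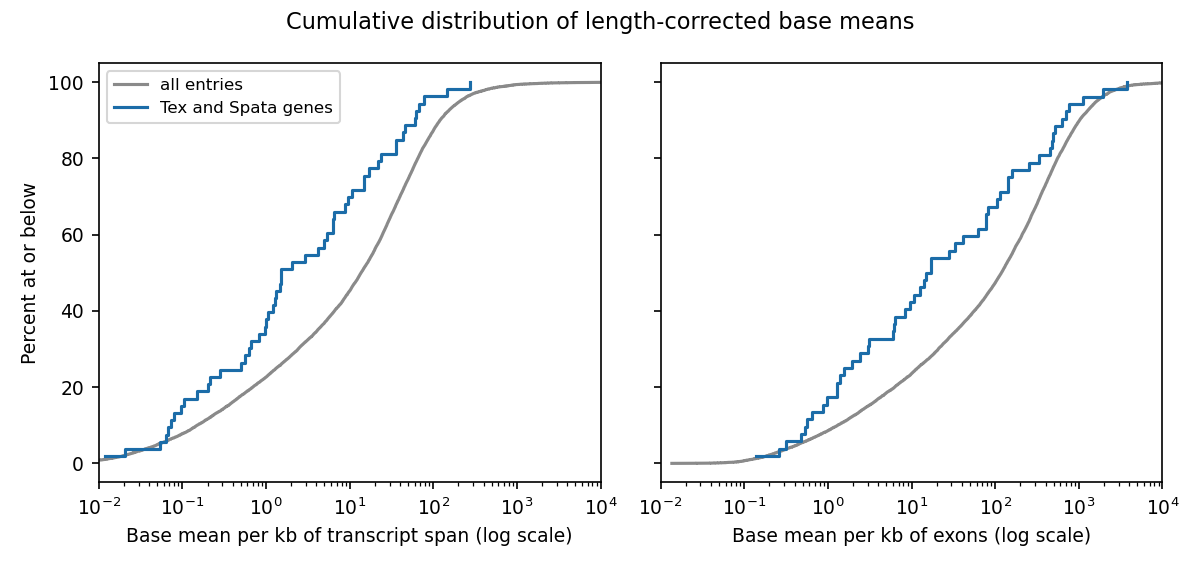
Percent of entries at or below each base mean per kb of transcript span (left) and per kb of exons (right), on log axes, for all entries above 0 (grey) and the Tex and Spata genes (blue). The blue curve rises earlier than the grey one over most of both panels, with medians of 1.498 and 13.7 per kb of span.

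Most of the high values belonged to a list of genes taken as widely expressed, some of which also have a specialised role or none that is given here. Of 17 such genes, 12 were above the median of all entries per kb of span, with a median of 23.9. *Tex10*, a subunit of a complex that matures the large ribosomal subunit and a known regulator of pluripotency, stood at 147.1 per kb of span (base mean 6246). In mm10 coordinates the transcript that gave its span occupies positions 48430956 to 48473422 of chromosome 4, minus strand. *Spata5* (chromosome 3, 37419896 to 37579096), an AAA ATPase used in ribosome biogenesis, had the highest base mean of all 53 genes, 12267, at percentile 99.0 of all entries. Its partner ATPase gene *Spata5l1* had a base mean of 126.8. Per kb of span these ATPase genes were 77.1 and 21.7, so that the gap between them was smaller by that measure. Per kb of exons *Spata5* stood at 3723, but *Spata5l1* had no known exonic length, so the pair could not be compared that way.

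Genes of membrane traffic and signalling in the same list were also well covered. *Tex261*, whose protein works in export from the endoplasmic reticulum, had 67.5 per kb of span (base mean 467.8). *Tex264*, a receptor for autophagy of the endoplasmic reticulum, had 43.5 per kb (base mean 1177). *Tex2*, a lipid transfer protein of the same organelle, had a higher base mean, 1656, but a level of 14.9 per kb over its span of 110784 bp. *Spata2*, which links the deubiquitinase CYLD to the linear ubiquitin ligase, had 36.2 per kb (base mean 425.5), while its paralog *Spata2l* had 4.99 per kb (base mean 19.7). *Spata13* had 14.8 per kb (base mean 1922).

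The remaining genes of this list varied widely. *Tex30* had 61.8 per kb (base mean 974.4) and *Tex9* 60.3 per kb (base mean 1953). *Spata24* reached 46.5 per kb from a base mean of only 100.9, as its span is 2171 bp. *Spata7*, a protein of the photoreceptor cilium, had 23.9 per kb (base mean 993.9). *Spata6*, needed for the neck of the sperm, had 10.7 per kb (base mean 1170) and *Spata1* 6.34 per kb (base mean 269.8). At the bottom were *Spata20*, with a base mean of 6.31 (0.979 per kb), and *Spata18*, a p53-induced gene of mitochondrial quality control, with 1.91 (0.0679 per kb).

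Several genes of meiosis and of transposon control had base means as high as many genes taken as widely expressed. Per kb of span, *Tex15* and *Tex14* lay above the median of that list (23.9) and *Tex11* lay below it. *Tex15*, which acts in transposon silencing and meiotic recombination in male germ cells, had the highest level of all 53 genes per kb of span, 277.1 (base mean 4168, percentile 92.7). The transcript that gave this span lies at positions 33570544 to 33585582 of chromosome 8, plus strand. Whether the gene extends beyond it was not analysed. Exons make up 8405 bp of this span of 15039 bp. Per kb of exons *Tex15* stood at 495.9, below genes such as *Spata5* (3723), *Tex10* (1950) and *Tex14* (1127). *Tex14*, required for the intercellular bridges of germ cells, had 35.6 per kb of span (base mean 5366). Its other entry in the table had a base mean of 4724. *Tex11*, an X-linked gene of meiotic crossover formation (100838648 to 101059639), had a base mean of 1453 spread over 220992 bp, or 6.58 per kb of span.

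The other meiotic genes were lower. *Spata22*, a partner of MEIOB on single-stranded DNA in meiosis, had 6.36 per kb (base mean 103.6). *Tex12*, a component of the central element of the synaptonemal complex, had 1.28 per kb (base mean 5.60). Over the 5 meiotic genes in the table, 2 lay above the median of all entries per kb of span and 3 per kb of exons. *Tex19.1* and *Tex19.2* were not analysed here.

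Genes listed for spermatids and sperm were low. The list does not hold *Spata6* (base mean 1170), taken as widely expressed, or *Spata33* (38.6), which have roles in sperm too. None of the 9 with a base mean above 0 lay above the median of all entries per kb of span or of exons, and their median was 0.151 per kb of span. The highest was *Tex101*, a surface glycoprotein of male germ cells, with 8.78 per kb (base mean 35.5). *Spata31d1d* followed with 0.834 per kb (base mean 4.86). *Spata16*, required to form the acrosome, had a base mean of 3.47 over a span of 289830 bp, which gave the lowest level of the 53 genes, 0.0120 per kb. The base means of the rest were 3.27 for *Spata9*, 1.72 for *Spata3*, 0.982 for *Spata19*, a gene of sperm mitochondria, 0.502 for both *Spata4* and *Spata46*, and 0.473 for *Spata31d1c*. *Spata31* itself was at 0, as were *Tex13a*, *Tex13c1*, *Tex36*, *Tex37* and *Tex48*. No read in 6 libraries allows up to 3 reads, which is a base mean between 0.338 and 0.754 depending on the library they would fall in. This limit covers counting error only and takes reads as independent, and would be higher if they came in pairs.

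Outside these lists were 22 genes. *Tex21* had the highest base mean, 227.1, and only *Tex13b*, at 16.8 per kb of span, lay above the median of all entries per kb, though not per kb of exons (40.8). The next by base mean were *Tex26* (92.0), *Tex13b* (86.4), *Spata17* (80.3) and *Tex16* (50.6), and *Spata33*, whose protein works with calcineurin in the sperm midpiece, had 38.6. Some short genes ranked higher per kb than by base mean, such as *Spata25* with 9.53 per kb from a base mean of 11.02.

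For low base means the whole reads behind them could be recovered. A base mean is a sum of whole reads, each worth a fixed step that depends on the size factor of its library, and the lowest values in the table resolve into 6 such steps, from 0.113 for a read in the deepest library to 0.251 in the shallowest. Of 3565 entries with a base mean under 10, 3549 (99.6%) could be written as whole reads from these steps in exactly 1 way to the last printed digit. All 22 Tex and Spata genes under 10 were among them. The recovered libraries carry no labels, so that UNT and OHT cannot be told apart in them and no comparison between groups was made. Among all nonzero counts recovered, 79.3% were even numbers, so that the reads may not all be independent.

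Reads were found in every library for 5 of the 22 genes. *Tex43* had 62 reads, between 5 and 22 per library with a median of 9, or 6.45 to 16.3 after normalization. *Spata45* had 41 reads, between 2 and 11 per library. *Spata48* and *Spata32* had 46 and 47 reads, each with at least 2 in every library. *Spata16* had 20 reads, between 1 and 6 per library. By these solutions the genes were low in every library rather than present in a few. For *Tex43*, *Spata48* and *Spata32* the solution was no longer the only one with a tolerance 10 times wider.

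Reads of other genes were spread less evenly. *Tex12* had 30 reads, of which 17 (56.7%) came from 1 library, where its normalized count was 20, against at most 7.11 in the other libraries and none in 1 of them. *Spata20* had 36 reads and none in 2 libraries, and its highest normalized count was 18.1, against at most 7.06 elsewhere. *Spata31d1d* had 31 reads in 5 libraries, with a median of 6 and at most 10. *Spata9* had 23 reads in 4 libraries, 11 of them in 1, but after normalization its highest counts were 7.44 and 7.06.

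The lowest genes rested on very few reads. *Tex38* had 17 reads, *Spata18* had 12 and *Spata3* had 11, each absent from at least 2 libraries. Between 5 and 8 reads were found for *Tex55* (8), *Tex50* (7), *Tex44* (6), *Spata19* (5) and *Tex47* (5). *Spata31d1c* had 4 reads in 2 libraries. *Spata4*, *Spata46* and *Tex33* had 2 reads each, all in 1 library, and *Tex46* had 1 read. In all, 10 of the 22 genes had reads in at most 3 libraries. The ranges of normalized counts of genes next to each other in base mean overlapped in all 21 pairs, and since most ranges begin at 0 and hold UNT and OHT libraries together, the order within these genes is not to be relied on. Above a base mean of 10 the spread between libraries is not known.

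**Figure D3:**
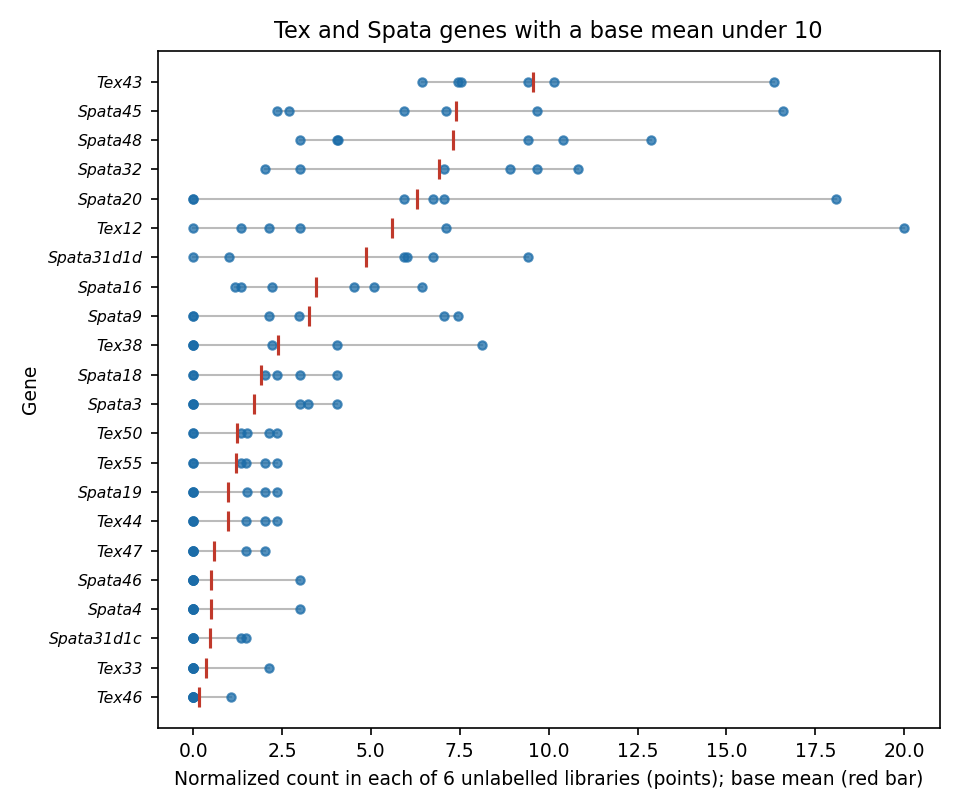
Normalized count (reads divided by the size factor) of the 22 Tex and Spata genes with a base mean under 10 in each of 6 unlabelled libraries (blue points, overlapping where equal), with the base mean as a red bar. Tex12 has 1 library at 20 and the others at 7.11 or lower, and Spata46, Spata4, Tex33 and Tex46 have reads in 1 library.

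High and low genes differed in the CG content of their promoters. Of the 53 genes, 46 had a window in the RefSeq table (*Tex15*, *Tex11*, *Spata24*, *Spata2l*, *Tex22*, *Tex43* and *Tex55* had none), and where a gene had several the window nearest to the 5′ end of its entry was used. A promoter was taken here as CpG-rich at a ratio of observed to expected CG of at least 0.6, with no requirement on GC content. This was met by 22 of the 46 (47.8%), against 59.4% of 14140 genes with a base mean above 0 and a window. The 22 CpG-rich genes had a median base mean of 446.6, and 12 of them lay above the median of all entries. None of the 24 CpG-poor genes did, and their median was 3.37. This depended on the threshold, as with a ratio of at least 0.75 the CpG-poor genes numbered 32, of which 5 (*Tex10*, *Tex14*, *Tex9*, *Spata6* and *Spata7*) lay above the median of all entries, against 33.4% of all CpG-poor genes. At 0.6 and per kb of span, 13 of the 22 (59.1%, against 70.5% of all CpG-rich genes) were above the median of all entries. Of the 24, again none were, against 24.0% of all CpG-poor genes.

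The same division held over all genes, and the Tex and Spata genes were lower than all genes in both classes. Over all 14140 genes, 70.8% of the CpG-rich and 22.3% of the CpG-poor ones were above the median base mean. Median base means over all genes were 780.7 for CpG-rich and 25.5 for CpG-poor ones, against 446.6 and 3.37 in the Tex and Spata genes. A base mean under 10 was found for 18 of the 24 CpG-poor Tex and Spata genes (75%), against 39.6% of all CpG-poor genes. For CpG-rich genes it was 2 of 22 (9.09%), against 4.13%. The highest CpG-poor gene of the group was *Tex21*, at 227.1 with a ratio of 0.421. By role list, 14 of 15 genes taken as widely expressed and 3 of 3 meiotic genes with a window were CpG-rich. This compares with 1 of 9 genes of spermatids and sperm (*Tex101*) and 4 of 19 genes outside the lists. The lists were chosen with earlier results of these data known, so these shares are a description only.

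**Figure D4:**
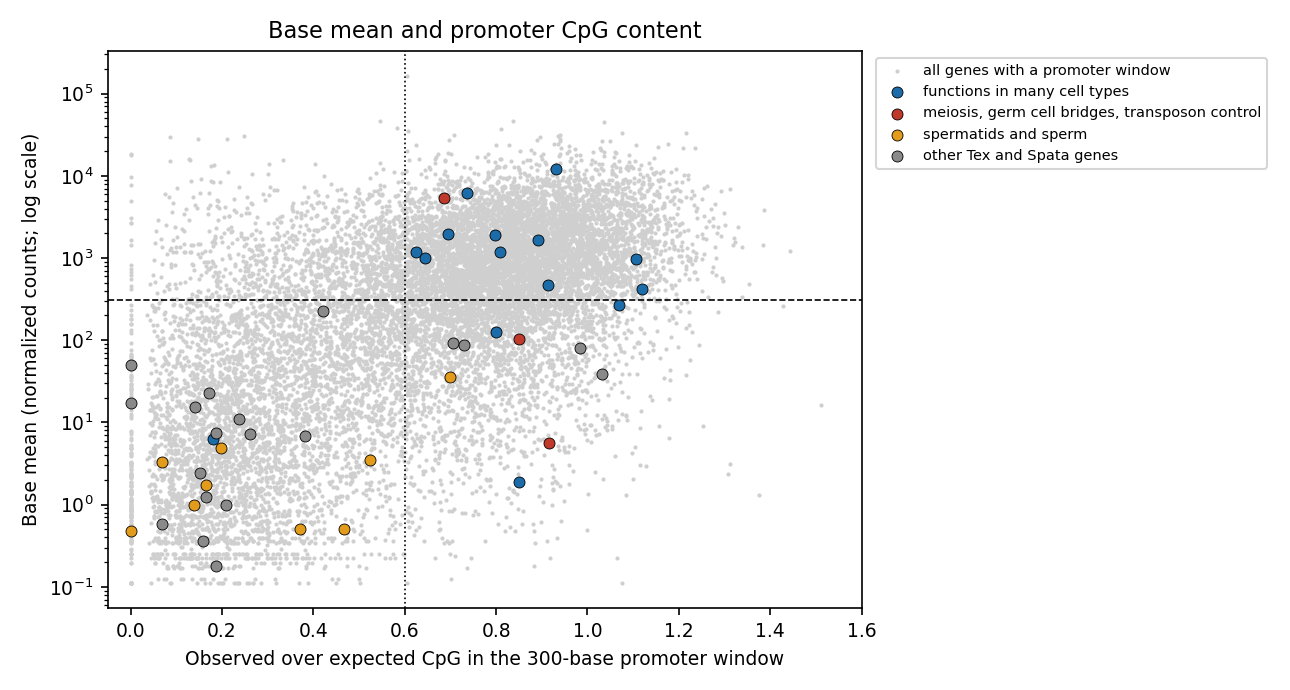
Base mean (log scale) against the ratio of observed to expected CG in the 300-base promoter window, for 46 Tex and Spata genes (coloured by role list) over 14140 genes (grey). The dotted line marks 0.6 and the dashed line the median of all entries, and no Tex or Spata gene lies in the upper left part.

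CpG-rich windows did not always go with many reads. The 10 CpG-rich genes at or under the median of all entries were *Spata1*, *Spata5l1*, *Spata22*, *Tex26*, *Tex13b*, *Spata17*, *Spata33*, *Tex101*, *Tex12* and *Spata18*. *Spata33* had 39 CG dinucleotides at a ratio of 1.03 and a base mean of 38.6. *Spata18* had 30 at a ratio of 0.851 and a base mean of 1.91. *Tex12* had 26 at a ratio of 0.915 and a base mean of 5.60. The last pair were the lowest of the CpG-rich genes. The methylation state of the windows was not analysed here.

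The windows were then searched on both strands for the E-box CACGTG, the E2F site TTCCCGC and TGACGT, which is part of the cAMP response element. No match of one motif overlapped a match of another in these genes. The planned measure, a match of CACGTG or TTCCCGC, was met by 9 of the 46 windows (19.57%), against 15.95% of the 14140 genes. TTCCCGC alone was found in 7 of the 46 windows (15.2%), against 7.43% of genes and 4.6% of all 32851 windows in the reference. All 7 were CpG-rich at the threshold of 0.6. Among CpG-rich windows the share with TTCCCGC was 31.8% in the Tex and Spata genes and 10.6% over all genes. That comparison was chosen after seeing the data. CACGTG was found in 3 windows (6.52%, against 9.25% of genes and 7.15% of all windows) and TGACGT in 5 (10.9%, against 10.0% of genes and 7.51% of all windows). A match is a string of letters and not evidence of binding.

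The stretches around the E-box and E2F matches are shown because E2F6 and MAX dimers are known to bind such letters. Each is printed 5′ to 3′ in the sense of the gene, with the match in capitals, so that GCGGGAA is the E2F site on the opposite strand. The E2F stretches lie at chr3:37419705-37419751 (*Spata5*, the first of its matches), chr11:87404933-87404979 (*Tex14*), chr9:72491979-72492025 (*Tex9*), chr1:44102584-44102630 (*Tex30*), chr11:73329717-73329763 (*Spata22*), chr5:149439681-149439709 (*Tex26*) and chr9:50561387-50561433 (*Tex12*). The E-box stretches lie at chr4:48473441-48473486 (*Tex10*), chr9:50561336-50561381 (*Tex12*) and chr3:26637540-26637585 (*Spata16*).
Spata5: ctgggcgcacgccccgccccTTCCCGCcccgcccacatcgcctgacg
Tex14: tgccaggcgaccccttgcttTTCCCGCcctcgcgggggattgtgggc
Tex9: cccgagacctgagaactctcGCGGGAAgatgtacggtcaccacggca
Tex30: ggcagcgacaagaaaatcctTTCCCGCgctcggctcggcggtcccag
Spata22: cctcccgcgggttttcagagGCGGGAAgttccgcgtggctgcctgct
Tex26: agtactactgccttgtcaggGCGGGAAgg
Tex12, E2F: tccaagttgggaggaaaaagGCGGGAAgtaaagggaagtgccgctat
Tex10: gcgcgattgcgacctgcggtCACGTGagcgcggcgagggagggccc
Tex12, E-box: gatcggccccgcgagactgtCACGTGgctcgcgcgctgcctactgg
Spata16: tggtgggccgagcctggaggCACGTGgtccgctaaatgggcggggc

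Positions are counted from the start of the transcript behind the window, whose first base is 1. For most of these genes that start is not the 5′ end of the entry that gave the base mean, and positions from the latter are then added. The E2F match of *Spata22* ran from -4 to 3 and that of *Tex14* from -112 to -106, with both starts the same. In *Tex9* it lay from -46 to -40, which is 97 to 103 inside the entry. In *Tex30* it lay from -169 to -163 (-219 to -213 from the entry) and in *Tex26* at 42 to 48 (-2 to 5 from the entry). *Spata5* held a second TTCCCGC from -163 to -157 beside the one from -225 to -219, and from the entry these were at -109 to -103 and -171 to -165. The E-box of *Tex10* crossed the start of the window's transcript (-3 to 3) and lay at -44 to -39 from the entry, and *Spata16* held another at -45 to -40 beside the one from -71 to -66 (-64 to -59 and -90 to -85 from the entry). *Tex12* was the only one of the 46 genes with both an E-box (-93 to -88) and an E2F match (-145 to -139), at -51 to -46 and -103 to -97 from the entry.

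The base means of the genes with an E2F match ran from 5.60 (*Tex12*) over 103.6 (*Spata22*) to 12267 (*Spata5*), so that a match went with low and with high values. The whole window of *Tex12*, on the minus strand at chr9:50561219-50561518, shows the distance between its matches, both in capitals.
Tex12: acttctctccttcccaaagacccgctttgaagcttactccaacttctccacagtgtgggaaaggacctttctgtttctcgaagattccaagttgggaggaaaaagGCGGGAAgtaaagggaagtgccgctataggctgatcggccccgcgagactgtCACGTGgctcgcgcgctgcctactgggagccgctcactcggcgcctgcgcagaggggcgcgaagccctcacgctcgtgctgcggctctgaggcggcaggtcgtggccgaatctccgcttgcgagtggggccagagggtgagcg

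TGACGT was found in *Spata5*, *Spata6*, *Spata7*, *Spata18* and *Spata32*. In *Spata7* the matches on the plus strand (-7 to -2, or -62 to -57 from the entry) and the minus strand (-5 to 1, or -60 to -55) overlapped, and together they make up a full cAMP response element.

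Some of these genes share a promoter region or a locus with a neighbour. Of 52 genes with a strand, 8 (15.4%, against 13.2% of all genes) had the 5′ end of a protein-coding gene of the opposite strand within 1 kb. Base means of the partners differed widely in some pairs and little in others. *Spata17* (base mean 80.3) starts 87 bp from *Gpatch2*, whose base mean was 5157. *Spata33* (38.6) starts 121 bp from *Chmp1a* (987.7), and *Spata22* (103.6) 145 bp from *Aspa* (97.9). *Tex14* (5366) starts 111 bp from the recombination gene *Rad51c* (550.4) and *Spata5* (12267) 315 bp from *Nudt6* (109.1).

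Of the 52 genes with a strand, 12 (23.1%, against 31.8% of all genes) overlapped a gene of the opposite strand. They included high genes such as *Spata5*, *Tex10* and *Tex9*. A few low genes lay inside a longer gene of the opposite strand. *Tex12*, with 30 reads, is contained in *Il18* (base mean 7.00). *Spata46*, with 2 reads, is contained in *Nos1ap* (base mean 828.0). *Tex50*, with 7 reads, is contained in *Ankrd45* (604.3), and *Tex47*, with 5 reads, in *Zfp804b* (115.0). The kit marks strand, and whether the counting used strand is not stated. On the same strand, 8 of the 52 genes (15.4%, against 8.33% of all genes) overlapped another annotation. These were *Tex30*, *Spata22*, *Spata24*, *Tex26*, *Tex16*, *Spata33*, *Spata32* and *Tex55*. The overlap covered the whole span of *Tex16* (33807 bp), *Spata33* (9161 bp), *Spata22* and *Tex55*. Whether reads of these annotations enter the base means was not tested. Within transcripts, 44 of the 58 matching genes with a transcript sequence (genes at 0 included) shared no stretch of 40 bases, the read length, with a transcript of another gene name. Stretches over 10% of the transcript were shared by 5 genes, with annotations that overlap them at the same locus: *Tex55*, *Spata22*, *Tex9*, *Spata24* and *Tex30*. Their base means may include reads of the overlapping annotation, and this was not tested. The Spata31 genes shared no more than 2.77% of their stretches (*Spata31d1d*, with a noncoding gene that overlaps it).

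The X chromosome held 5 of the 59 matching genes, of which *Tex13a* and *Tex13c1* were at 0, and 3 of the 53 above 0 (5.66%, against 3.47% of all genes). Only 3 pairs of genes lay within 500 kb of each other. The closest were *Spata2l* and *Spata33* on chromosome 8, 10213 bp apart with base means of 19.7 and 38.6, followed by *Spata31* and *Spata31d1c* on chromosome 13 and by *Spata3* and *Tex44* on chromosome 1.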

How the data were processed

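Nuclear RNA was sequenced by the authors from 3 UNT and 3 OHT libraries with 40-base paired-end reads and a directional kit. The authors discarded rRNA reads (bowtie2), mapped the others to mm10 (STAR, with bowtie2 for what STAR left), obtained paired-end counts over a filtered refGene set and ran DESeq2. The deposited base mean, treated as a signal, is each entry's size-factor-scaled count averaged across UNT and OHT. The other deposited columns (log2 fold changes, their standard errors, Wald statistics, p-values, adjusted p-values and a threshold flag) are the authors' own comparison and were not used. No test between groups was made, as separate counts for labelled libraries were not analysed here, and the planned fit on counts and comparison of protein sequences were not run.

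Genes were named from the RefSeq table of GRCm38.p6 and GENCODE vM21 (20560 of 20633 entries), whose coordinates are those of mm10. Of several transcripts for a RefSeq identifier, the longest over its exons gave the length. Promoter windows came from RefSeq. The steps behind base means under 10 were fitted by least squares and solved for whole reads, with a tolerance of the last printed digit (10 significant digits). On simulated data with 3327 entries, 99.2% had 1 solution, and 100.0% of those were right. The role lists, marker lists and genes examined were chosen with earlier results of these data known. Named with values are the 10 highest genes by base mean and per kb, the 5 lowest and the genes of the role lists. Any other gene was named after its values were seen. Alternatives were other ways of keeping entries, other medians, lengths, thresholds, windows and tolerances. Python 3.11.15, numpy 2.4.6, pandas 2.3.3 and matplotlib 3.10.9 were used.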

Additional observations from a re-analysis of the deposited data

How the results depend on the processing

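No paired analysis was possible because the base mean holds no values for labelled libraries, and for the same reason no replicate was left out and no fit on counts was run. The number of Tex and Spata genes above the median base mean of all entries was 14 or 15 of 53 under 4 alternatives, and the number above the median per kb was 15 under 2. With entries of a base mean of at least 10 alone, which leaves 31 of the genes, 12 lay above the median base mean and 11 above the median per kb. With a threshold of 5 or 20 in place of 10, 16 or 27 of the 53 genes were low, against 14.1% or 23.2% of all entries. A stricter ratio of observed to expected CG of 0.75 left 14 CpG-rich genes in place of 22, against 42.3% of all genes. In alternatives chosen after seeing the data, that ratio put 5 of 32 CpG-poor genes above the median base mean, in place of 0. The share of all CpG-poor genes was 33.4%. Per kb, 5 were above the median in place of 0, against 35.2% of all CpG-poor genes. That ratio left 4 of 14 CpG-rich genes with TTCCCGC, against 11.6% of all CpG-rich genes, in place of 7 of 22. Adding a GC content of at least 55% to the ratio of 0.6 left 19 CpG-rich genes, against 51.5%. Of the 27 CpG-poor genes, 2 were then above the median per kb, against 32.4% of all CpG-poor genes. In the 250 bases before the start alone, 6 windows held CACGTG or TTCCCGC (13.0%, against 13.4% of all genes). These were in place of 9 in the full window (19.57%, against 15.95% of all genes). With a tolerance 10 times wider, 19 of the 22 low genes kept a single solution in whole reads. Those that did not were *Tex43*, *Spata48* and *Spata32*, all of them given above as having reads in every library. Depth limits the lowest genes most, since a base mean under 1 rests on 6 reads or fewer in these genes.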
